A study of Homo sapiens with 3 samples.

Results

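The RNA levels of 10 genes that make, control or break down polyamines were followed in RWPE1 cells, an immortalized line of normal human prostate epithelium, among the 58037 genes of the count table. The genes were taken from a named list: *ODC1*, *AZIN1*, *OAZ1*, *OAZ2*, *SRM*, *SMS*, *AMD1*, *SAT1*, *SMOX* and *PAOX*. *ODC1* was placed at its head because its level was high in both libraries that are not OLFM4-wild, so its fold changes are given as a description. There was 1 library for each of 3 groups: OLFM4-wild, OLFM4-knockout and a group labelled OLFM4-active. The study's methods describe the RNA as taken from bulk RWPE1 cells sorted for green fluorescent protein (GFP). OLFM4 (olfactomedin 4) is a secreted glycoprotein. According to the study's methods, knockout used CRISPR/Cas9 double nickase plasmids, CRISPR/Cas9 activation plasmids were used to make the OLFM4-wild reporter cells, and stable lines were selected with puromycin. How many clones entered each library, and how the cells labelled OLFM4-active differ from the OLFM4-wild reporter cells, is not given in the sources used here. The study's results name the sorting by GFP for the knockout cells. Whether the OLFM4-wild library came from reporter cells or from unmodified RWPE1 cells is likewise not given.

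The libraries held 16309906 counts (OLFM4-wild), 58837147 counts (OLFM4-knockout) and 23224216 counts (labelled OLFM4-active). Levels are given as CPM, counts per 1000000 counts, after scaling of the libraries by the trimmed mean of M values (TMM), each with a 95% interval that covers counting error only. With 1 library per group no spread between samples could be measured, no test was possible, and each comparison is between libraries, not conditions. *OLFM4* (chr13:53028813-53052057 of GRCh38, plus strand) was at 11.8 CPM (10.2 to 13.5) in the OLFM4-wild library, 2.55 CPM (2.13 to 3.03) in the OLFM4-knockout library and 0.670 CPM (0.383 to 1.09) in the library labelled OLFM4-active. The lowest *OLFM4* level was therefore in the library labelled OLFM4-active, against its label. All 6 basal epithelial markers examined reached 1 CPM in every library. Their summed level was 18751 CPM in OLFM4-wild, 41146 CPM in OLFM4-knockout and 22727 CPM in the library labelled OLFM4-active. Most of it was *KRT5*, at 12232, 27077 and 13686 CPM in the same order. *KRT15* alone of these markers was lower in the library labelled OLFM4-active (97.2 CPM) than in OLFM4-wild (126.6 CPM). Of the 6 luminal markers reported here 4 reached 1 CPM, and the luminal defining gene *KLK3* was under 1 CPM in all libraries. The luminal sums were 469.5, 429 and 310.1 CPM in OLFM4-wild, OLFM4-knockout and the library labelled OLFM4-active. Of the 4, only *KRT18* was higher in OLFM4-knockout (191 CPM) than in OLFM4-wild (176.7 CPM). Summed markers of the other cell types were at most 33.79 CPM (fibroblast and muscle), 31.37 CPM (leukocyte, from *CD68*), 13.26 CPM (neuroendocrine) and 0.605 CPM (endothelium). Each sum was highest in the OLFM4-wild library. There, *COL1A1* made up 30.21 CPM of the first sum and *ENO2* 12.82 CPM of the neuroendocrine one. The neuroendocrine marker *CHGA* went the other way, with 0 counts in OLFM4-wild and 14 in each other library. *CD3E*, *COL3A1* and *DES* were at 0 counts in all libraries. The part of these marker differences in the results was not tested, and in bulk RNA fewer cells of a type and less RNA per cell cannot be told apart.

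Polyamines (putrescine, spermidine and spermine) are small positively charged molecules that bind nucleic acids and are needed for cell growth, and the prostate is known for making and secreting large amounts of them. Ornithine decarboxylase, encoded by *ODC1*, makes putrescine from ornithine, and spermidine synthase (*SRM*) and spermine synthase (*SMS*) lengthen it with aminopropyl groups supplied through S-adenosylmethionine decarboxylase (*AMD1*). Antizymes (*OAZ1*, *OAZ2*) bind ornithine decarboxylase and send it to the proteasome, the antizyme inhibitor (*AZIN1*) occupies antizymes, and *SAT1*, *SMOX* and *PAOX* encode the enzymes that acetylate and oxidize polyamines. *ODC1* is also a textbook target of the transcription factor MYC, which binds the E-box CACGTG, and MYC signaling is a subject of this study.

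Because *ODC1* stood apart in its level, its promoter is shown, and the E-boxes near the starts of *ODC1* and *SRM* are shown because only these members held more than 1 of them in the first 1000 bases of the gene. *ODC1* lies at chr2:10439968-10448327 on the minus strand of GRCh38 and *SRM* at chr1:11054584-11060020 on the minus strand. The 250 bases before the *ODC1* start (RefSeq, GRCh38.p14, chr2:10448328-10448577, minus strand) are printed 5′ to 3′ with capitals marking GC boxes, GGGCGG on either strand.

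ODC1 promoter: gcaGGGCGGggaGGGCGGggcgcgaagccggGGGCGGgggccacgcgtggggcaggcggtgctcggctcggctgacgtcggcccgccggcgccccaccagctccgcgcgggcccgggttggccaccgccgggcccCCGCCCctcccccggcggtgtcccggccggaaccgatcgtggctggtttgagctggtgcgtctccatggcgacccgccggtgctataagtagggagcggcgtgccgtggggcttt

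This promoter held 4 GC boxes, beginning at -247, -238, -219 and -115 from the start, the last one on the opposite strand. Of all 35116 RefSeq promoter windows (250 bases before to 50 after the start), 45% held at least 1 GC box. The E-box, whose letters read the same on both strands, is in capitals in the following stretches of the hg38 genome, all printed in the direction of the gene. The *ODC1* stretch is chr2:10447992-10448051, and the *SRM* stretches are chr1:11059552-11059577 and chr1:11059462-11059487.

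ODC1 both E-boxes: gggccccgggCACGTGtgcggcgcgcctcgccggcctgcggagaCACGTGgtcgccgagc

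SRM E-box 1: cgccccgctcCACGTGtcagccctca

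SRM E-box 2: cgttcctcgcCACGTGtcaccatcgc

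In *ODC1* the E-boxes began 287 and 321 bases from the gene's start, with 28 bases between them, and in *SRM* they began at 454 and 544, with 84 bases between them. In *ODC1* the first E-box is intronic in the annotated transcripts and the second falls in the first exon of shorter ones. In *SRM* both lie in the first intron of the main transcript. Among 20033 genes, 14.9% held at least 1 E-box in their first 1000 bases and 1.65% held at least 2. *PAOX* held 1, and the other 7 members held none. In the promoter windows, an E-box was found in 7.26% of all windows. RefSeq windows were matched for 7 of the 10 members, and of these *SRM* held 1 E-box at -199. The window of the *ODC1* start whose promoter is printed above held 0. That of the second *ODC1* start held 2, which are the same 2 E-boxes as printed above and not further ones. These matches are descriptions of letters, not of binding.

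*ODC1* was the member with the largest difference between libraries. Its level was 144 CPM (138.6 to 149.6) in the OLFM4-wild library, 1425 CPM (1415 to 1436) in the OLFM4-knockout library and 937.6 CPM (925.4 to 950.0) in the library labelled OLFM4-active. It was lowest in the OLFM4-wild library, and these counting intervals did not overlap. Since *ODC1* was chosen for this contrast, nothing is read from this order or from the fold changes and places of *ODC1* given below. The *ODC1* log2 fold change (on log2 CPM with an offset of 0.5 counts) was 3.31 (3.25 to 3.36) for OLFM4-knockout against OLFM4-wild, or 9.89-fold. For the library labelled OLFM4-active it was 2.70 (2.64 to 2.76), or 6.51-fold. Both comparisons share the OLFM4-wild library. Between the other two libraries the difference was small, with *ODC1* 1.52-fold higher in OLFM4-knockout and a log2 fold change of 0.60 (0.58 to 0.63). By level *ODC1* was the 973rd gene of the OLFM4-wild library, the 65th of the OLFM4-knockout library and the 85th of the library labelled OLFM4-active. It took 0.016%, 0.124% and 0.0965% of all counts in the same order.

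Of the 16600 genes that averaged 1 CPM or more over the libraries, a log2 fold change above 1 was found for 5.77% and below -1 for 7.56% in OLFM4-knockout against OLFM4-wild. *ODC1* was in place 29 from the top of this comparison. In the library labelled OLFM4-active it was in place 36, where 3.78% of genes were above 1 and 6.73% below -1. Library totals in place of TMM lower every log2 fold change by 0.35 for OLFM4-knockout over OLFM4-wild, by 0.11 for the library labelled OLFM4-active over OLFM4-wild and by 0.24 for OLFM4-knockout over the library labelled OLFM4-active. The median over all tested genes moved with it, from 0.10 to -0.26 in the first comparison. With totals, 2.18% of genes were above 1 and 14.1% below -1 in OLFM4-knockout, and 2.84% and 8.46% in the library labelled OLFM4-active. On library totals the *ODC1* log2 fold changes were 2.95 and 2.59 against OLFM4-wild.

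**Figure D1:**
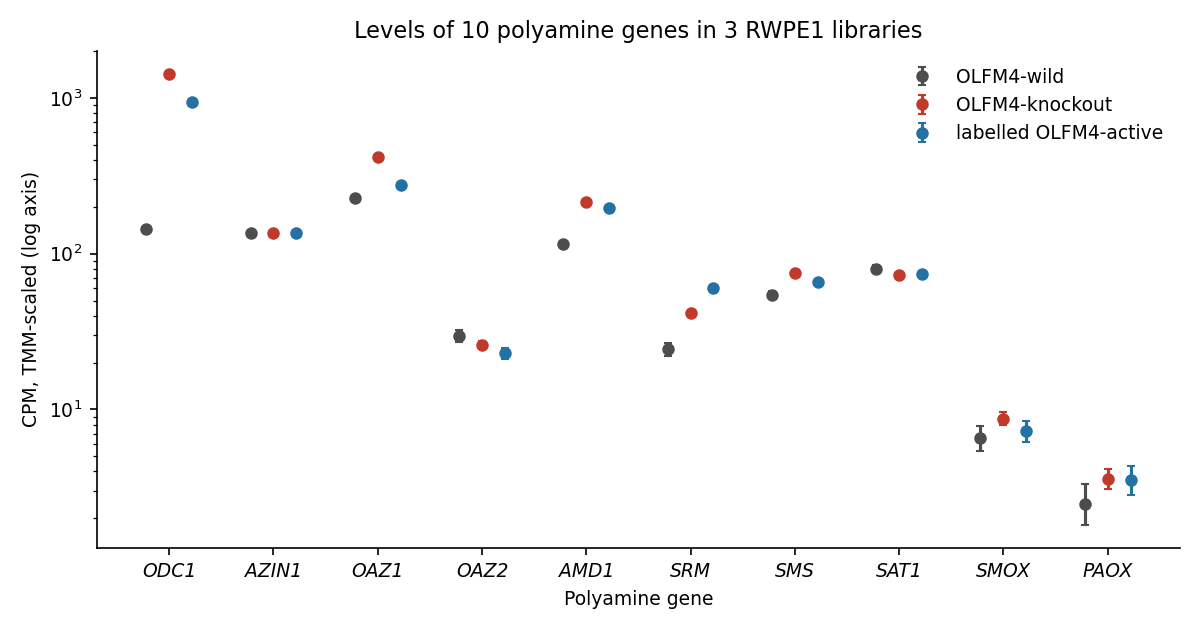
Level of each of the 10 polyamine genes (log axis, TMM-scaled CPM) in the 3 libraries, with bars for the 95% counting interval, which are often smaller than the points. *ODC1* goes from 144 CPM in OLFM4-wild to 937.6 and 1425 CPM, while *AZIN1* is near 136 CPM in all 3 libraries.

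The regulators of ornithine decarboxylase were all within 2-fold of their OLFM4-wild level in the other libraries, as were most genes. In OLFM4-knockout 5.77% of all genes were more than 2-fold higher and 7.56% more than 2-fold lower than in OLFM4-wild. In the library labelled OLFM4-active these shares were 3.78% and 6.73%. *OAZ1* (chr19:2269509-2273490, plus strand), the main antizyme, was at 227.2 CPM (220.4 to 234.3) in OLFM4-wild, 414.6 CPM (409.1 to 420.2) in OLFM4-knockout and 273.8 CPM (267.3 to 280.6) in the library labelled OLFM4-active. It was higher in both than in OLFM4-wild, by log2 0.87 (0.82 to 0.92) and 0.27 (0.21 to 0.33). On library totals these were 0.51 and 0.15. *OAZ1* shares 220 exon bases on the same strand with another annotated gene, where reads of the 2 genes cannot be told apart, and has a pseudogene, so its counts are uncertain to that extent.

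*OAZ2* (chr15:64687573-64703281, minus strand), a second antizyme, was at 29.7 CPM (27.3 to 32.3) in OLFM4-wild, 26.1 CPM (24.7 to 27.5) in OLFM4-knockout and 22.9 CPM (21.0 to 24.9) in the library labelled OLFM4-active. It was thus lower in both than in OLFM4-wild, by log2 -0.19 (-0.33 to -0.04) and -0.38 (-0.55 to -0.20). *AZIN1* (chr8:102826111-102893864, minus strand), the antizyme inhibitor, stood at 136.3 CPM (131.0 to 141.8), 135.1 CPM (132.0 to 138.4) and 135.9 CPM (131.3 to 140.7) in OLFM4-wild, OLFM4-knockout and the library labelled OLFM4-active. Its log2 fold changes against OLFM4-wild were -0.01 (-0.08 to 0.05) and -0.00 (-0.08 to 0.07), whose signs turned with the scaling (0.02 with DESeq2 size factors for the library labelled OLFM4-active, 0.04 with TMM over OLFM4-wild and OLFM4-knockout alone), and -0.37 and -0.12 on library totals. With TMM, no difference in *AZIN1* beyond counting error was detectable.

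The genes of the aminopropyl branch were all above their OLFM4-wild level in both other libraries, by less than *ODC1*. *AMD1* (chr6:110874770-110898879, plus strand) was at 114.7 CPM (109.9 to 119.8) in OLFM4-wild, 213.9 CPM (209.9 to 217.9) in OLFM4-knockout and 197.6 CPM (192.0 to 203.3) in the library labelled OLFM4-active. Its log2 fold changes against OLFM4-wild were 0.90 (0.83 to 0.97) and 0.78 (0.71 to 0.86), both short of 2-fold. Between OLFM4-knockout and the library labelled OLFM4-active it differed by 0.11 (0.07 to 0.16), which became -0.12 on library totals.

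*SRM*, which adds the first aminopropyl group, was higher than in OLFM4-wild in both other libraries. It was at 24.4 CPM (22.2 to 26.8) in OLFM4-wild, 41.4 CPM (39.7 to 43.2) in OLFM4-knockout and 59.9 CPM (56.8 to 63.1) in the library labelled OLFM4-active, so its highest level was in the last. The log2 fold change against OLFM4-wild was 0.76 (0.62 to 0.91) in OLFM4-knockout and 1.30 (1.14 to 1.45), or 2.46-fold, in the library labelled OLFM4-active. With TMM, *SRM* was the only member lower in OLFM4-knockout than in the library labelled OLFM4-active with an interval below 0, at -0.53 (-0.63 to -0.44). On library totals it was at -0.77, and *AZIN1*, *SAT1*, *PAOX*, *AMD1*, *OAZ2* and *SMS* were also below 0, from -0.25 to -0.05. *SRM* has 3 annotated pseudogenes, *AMD1* has 4, and *ODC1* and *SMS* have 1 each, and the counts used uniquely mapped reads.

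*SMS* (chrX:21940709-21994837, plus strand), which adds the second aminopropyl group, was at 54.4 CPM (51.0 to 57.9), 74.8 CPM (72.4 to 77.2) and 65.7 CPM (62.5 to 69.0) in OLFM4-wild, OLFM4-knockout and the library labelled OLFM4-active. It was higher in both than in OLFM4-wild, by log2 0.46 (0.36 to 0.56) and 0.27 (0.16 to 0.39), or 0.11 and 0.16 on library totals.

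No catabolic gene was past 2-fold in any comparison. *SAT1* (chrX:23783173-23786210, plus strand), whose product acetylates spermidine and spermine, was at 79.9 CPM (75.8 to 84.1), 73.0 CPM (70.7 to 75.4) and 73.5 CPM (70.1 to 77.1) in OLFM4-wild, OLFM4-knockout and the library labelled OLFM4-active. It was lower in both than in OLFM4-wild, by log2 -0.13 (-0.22 to -0.04) and -0.12 (-0.22 to -0.02). *SMOX* (chr20:4120980-4187747, plus strand), spermine oxidase, was at 6.55 CPM (5.43 to 7.84), 8.73 CPM (7.94 to 9.57) and 7.24 CPM (6.20 to 8.40) in the same order. Its intervals overlapped between the library labelled OLFM4-active and each of the others, and its log2 fold changes against OLFM4-wild were 0.41 (0.12 to 0.72) and 0.14 (-0.20 to 0.49). *PAOX* (chr10:133379261-133391694, plus strand), the oxidase of acetylated polyamines, was the lowest member at 2.48 CPM (1.81 to 3.31), 3.57 CPM (3.07 to 4.12) and 3.52 CPM (2.80 to 4.35). Its log2 fold changes were 0.51 (0.05 to 1.03) and 0.50 (-0.03 to 1.06), from only 45 counts in OLFM4-wild. *PAOX* shares 1373 exon bases with a same-strand gene that held 320, 1738 and 649 counts, so its counts are uncertain.

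**Figure D2:**
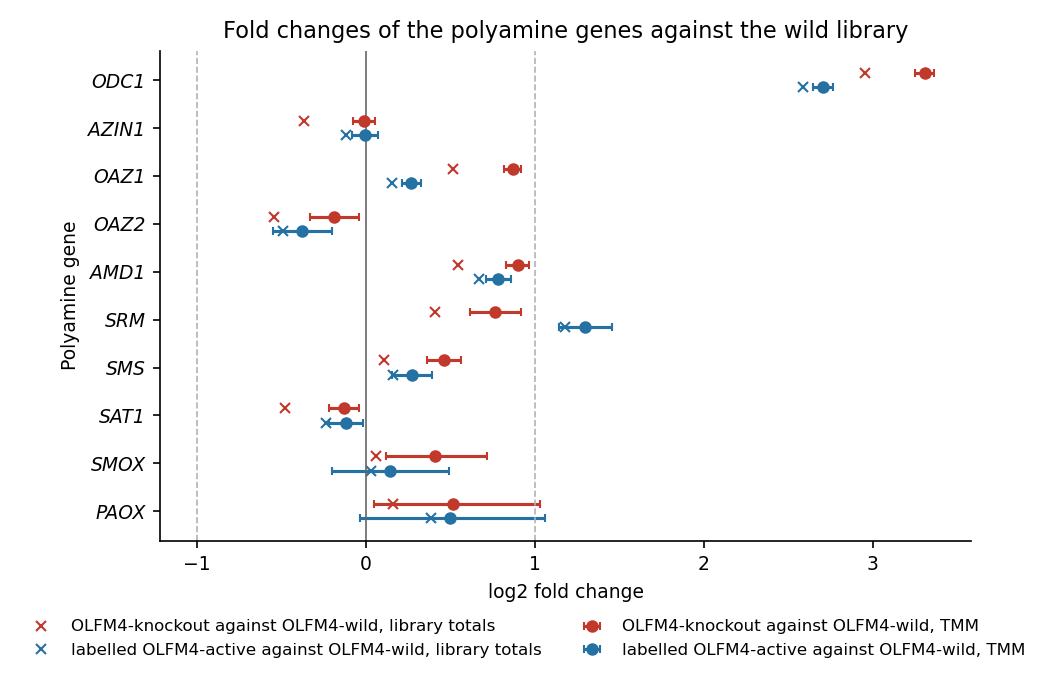
Log2 fold change of each polyamine gene in OLFM4-knockout and in the library labelled OLFM4-active, each over OLFM4-wild. Points are TMM values with 95% counting intervals, crosses are values on library totals, and dashed lines mark 2-fold. *ODC1* is at 3.31 and 2.70, and only *SRM* (1.30 in the library labelled OLFM4-active) also lies past 2-fold by its point.

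In all, 1 of the 10 members (*ODC1*) was above a log2 fold change of 1 in OLFM4-knockout against OLFM4-wild, beside 5.77% of all genes. None was below -1, beside 7.56% of all genes. In the library labelled OLFM4-active 2 members (*ODC1* and *SRM*) were above 1, beside 3.78% of all genes. Since *ODC1* was chosen for this contrast, nothing is read from its place in these counts. Without *ODC1*, 0 of 9 and 1 of 9 members were above 1. Over 10 members the median was 0.49 and 0.27, and without *ODC1* it was 0.46 and 0.27, beside medians of 0.10 and 0.05 for all genes. On library totals the members' medians were 0.13 and 0.16, and those of all genes -0.26 and -0.07. Between OLFM4-knockout and the library labelled OLFM4-active no member was past 2-fold, beside 2.95% of genes above 1 and 3.39% below -1 (1.29% and 6.97% on library totals), and the members' median was 0.15, which became -0.09 on library totals.

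Within a library, shares and ratios do not depend on the scaling between libraries. *ODC1* supplied 17.6% (95% Clopper-Pearson interval 17.0 to 18.2) of the 14894 counts of the 10 members in OLFM4-wild, 59.0% (58.7 to 59.3) of 124046 in OLFM4-knockout and 52.7% (52.3 to 53.2) of 42475 in the library labelled OLFM4-active. The other 9 members together were at 675.6, 991.2 and 840.1 CPM. *ODC1* thus had more counts than all other members together in the last 2 of these libraries and fewer in OLFM4-wild. Since *ODC1* was chosen for this contrast, nothing is read from the difference in its share.

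To compare genes with each other, levels were divided by exon length (CPM per kb), taken over all annotated exons of a gene. This length can exceed that of the RNA made, to a different extent for each gene. The order of genes depends on it, and the intervals do not cover this. In OLFM4-wild, *OAZ1* was highest at 66.1 CPM per kb, followed by *ODC1* at 43.6, *SAT1* at 32.2, *SMS* at 25.5 and *AZIN1* at 22.2. *SRM* (12.9) and *AMD1* (11.3) came next and overlapped in their intervals, and *OAZ2* (3.87), *SMOX* (2.22) and *PAOX* (1.10) were lowest. In OLFM4-knockout *ODC1* was first at 431 CPM per kb and *OAZ1* second at 120.7. *SRM* (21.9) overlapped in its interval with both *AZIN1* (22.1) and *AMD1* (21.0). *AZIN1* lay above *AMD1* per kb, but below it in CPM (135.1 and 213.9). In the library labelled OLFM4-active *ODC1* was again first at 283.5 CPM per kb, before *OAZ1* at 79.7, and *SRM* (31.6), *SMS* (30.8) and *SAT1* (29.6) could not be ordered.

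The exon length of each gene is fixed, so the ratio of *ODC1* to each other gene could be followed across libraries. Per length, *ODC1* was below *OAZ1* in OLFM4-wild, at a ratio of 0.659 (0.627 to 0.692). It was above *OAZ1* in OLFM4-knockout at 3.57 (3.52 to 3.63) and in the library labelled OLFM4-active at 3.56 (3.46 to 3.66). These last ratios overlapped, although the levels of both genes differed between those libraries. The ratio to *AZIN1* was 1.96 (1.85 to 2.07) in OLFM4-wild, 19.6 (19.1 to 20.0) in OLFM4-knockout and 12.8 (12.3 to 13.3) in the library labelled OLFM4-active. The ratio to *SRM* was 3.38 (3.06 to 3.75), 19.7 (18.9 to 20.6) and 8.97 (8.50 to 9.47) in the same order. *ODC1* exceeded *SAT1* 1.35 times (1.27 to 1.44) in OLFM4-wild, 14.7 times (14.2 to 15.1) in OLFM4-knockout and 9.57 times (9.12 to 10.1) in the library labelled OLFM4-active. The ratio to *AMD1* was 3.87 (3.65 to 4.10), 20.5 (20.1 to 21.0) and 14.6 (14.2 to 15.1), and that to *SMS* was 1.71 (1.59 to 1.84), 12.3 (11.9 to 12.7) and 9.20 (8.74 to 9.69). For each of the 9 genes the ratio was lowest in OLFM4-wild. Since *ODC1* was chosen for its rise in both other libraries, nothing is read from this order.

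**Figure D3:**
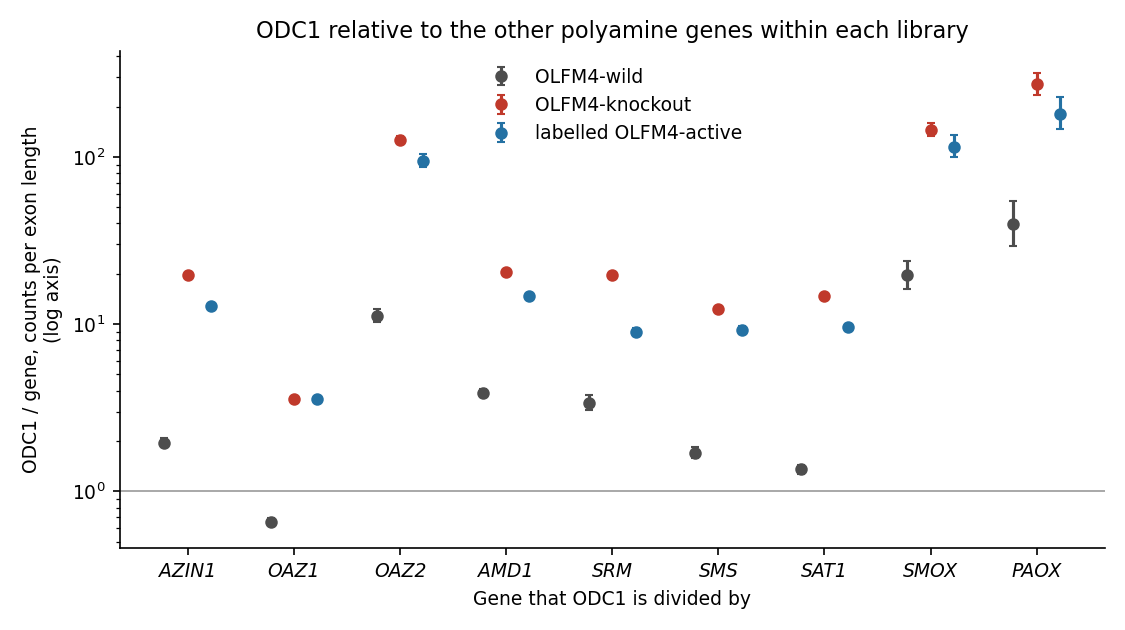
Ratio of *ODC1* to each other polyamine gene within a library, as counts per exon length (log axis), with 95% counting intervals. The grey line marks a ratio of 1. Only the ratio to *OAZ1* in OLFM4-wild (0.659) lies below it, and in OLFM4-knockout and the library labelled OLFM4-active the ratio to *OAZ1* is 3.57 and 3.56. *ODC1* was chosen for its rise in both of these libraries.

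The genes most like *ODC1* were sought among 10597 genes that averaged 10 CPM or more, by the Euclidean distance between their 2 log2 fold changes against OLFM4-wild and those of *ODC1*. This likeness rests on 3 libraries. The nearest was *MT1E*, a metallothionein that binds metal ions, at a distance of 0.412, with 28.8 CPM in OLFM4-wild, 252.8 CPM in OLFM4-knockout and 243 CPM in the library labelled OLFM4-active. *DKK1*, a secreted WNT inhibitor, followed at 0.433, with 48.0, 373.7 and 374.4 CPM. Next came the long noncoding RNA ENSG00000257042 at 0.507, *PTHLH* (parathyroid hormone-like hormone) at 0.536 and *AJAP1* (an adherens junction associated protein) at 0.606. ENSG00000257042 was at 2.48, 27.18 and 22.85 CPM, *PTHLH* at 10.9, 120.2 and 101.5 CPM, and *AJAP1* at 7.04, 49.5 and 58.5 CPM. In OLFM4-wild, ENSG00000257042 and *AJAP1* were under 10 CPM. They passed the filter only through the libraries in which they were high.

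A wider list of 33 genes that supply, use or carry polyamines or their precursors was examined, of which 28 averaged 1 CPM or more. *ARG1*, *OTC*, *MAT1A*, *AZIN2* and *AOC1* did not. In OLFM4-knockout against OLFM4-wild 25 of the 28 were above 0, beside 9405 of all 16600 genes, but *AGMAT*, *ATP13A2* and *MTAP* turned below 0 on library totals. The median was 0.61, beside 0.10 for all genes. On library totals it was 0.26, beside -0.26 for all genes. Among genes averaging 10 CPM or more the medians were 0.72 for the list and 0.17 for all genes. There were 4 above a log2 fold change of 1, beside 5.77% of all genes, and none below -1, beside 7.56%. On library totals none was above 1, beside 2.18% of all genes. In the library labelled OLFM4-active 25 were above 0, beside 8943 of all genes, but *ATP13A2* and *SATL1* turned below 0 on library totals. The median there was 0.45, beside 0.05 for all genes, and 2 were above 1, beside 3.78% of all genes.

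Methionine adenosyltransferase, encoded by *MAT2A*, makes S-adenosylmethionine, the precursor of the aminopropyl donor. *MAT2A* was at 119.7 CPM (114.7 to 124.8) in OLFM4-wild, 288.4 CPM (283.8 to 293.1) in OLFM4-knockout and 524 CPM (514.8 to 533.2) in the library labelled OLFM4-active. Its log2 fold changes were 1.27 (1.20 to 1.33) and 2.13 (2.06 to 2.20), and like *SRM* it was highest in the library labelled OLFM4-active. The regulatory subunit gene *MAT2B* was at 61.9, 60.1 and 77.8 CPM, with log2 fold changes of -0.04 (-0.14 to 0.06) and 0.33, the first of which turned to 0.01 with TMM over OLFM4-wild and OLFM4-knockout alone. *ADI1*, of methionine salvage, had 0.64 and 0.17.

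For arginine and ornithine supply, all 8 genes that passed had log2 fold changes above 0 in both comparisons, beside 9405 and 8943 of all 16600 genes. Their medians were 0.65 and 0.52, beside 0.10 and 0.05 for all genes. In OLFM4-knockout the interval of *AGMAT* held 0, at 0.12 (-0.51 to 0.84), and its value was -0.23 on library totals. *SLC25A15*, the mitochondrial ornithine carrier, was at 6.0 CPM (4.93 to 7.24), 14.4 CPM (13.4 to 15.5) and 11.8 CPM (10.4 to 13.2), with log2 fold changes of 1.26 (0.97 to 1.57) and 0.97 (0.65 to 1.30). The urea cycle gene *ASS1* had 0.42 and 0.19. *ASL*, which acts after it and releases arginine, had 0.96 (0.81 to 1.11) and 0.45, and shares 563 exon bases with another gene of the same strand, so its counts are uncertain. The cationic amino acid transporter gene *SLC7A1* was at 284.6, 405.8 and 490.3 CPM.

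Hypusine is made from spermidine on the translation factor eIF5A. *EIF5A* was at 217.9, 427.7 and 314.4 CPM in OLFM4-wild, OLFM4-knockout and the library labelled OLFM4-active, with log2 fold changes of 0.97 and 0.53. Its paralog *EIF5A2* was at 7.93 CPM (6.68 to 9.33), 14.9 CPM (13.9 to 16.0) and 21.8 CPM (20.0 to 23.8), with 0.91 and 1.46 (1.19 to 1.74). Of the modifying enzymes, *DOHH* had 0.98 and 0.45, and *DHPS* had 0.43 and -0.02, the latter turning above 0 with DESeq2 size factors (0.01).

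Among transport genes *SLC3A2*, a heavy chain of amino acid transporters that has also been linked to polyamine export, was at 447 CPM (437.3 to 456.8), 1082 CPM (1073 to 1091) and 707.9 CPM (697.2 to 718.6). Its log2 fold changes were 1.27 (1.24 to 1.31) and 0.66. *SLC18B1*, a vesicular polyamine transporter, had 1.09 (0.87 to 1.33) and 0.53. The polyamine exporting ATPase of lysosomes, *ATP13A2*, had only 0.26 and 0.04, and both were below 0 on library totals (-0.09 and -0.07). The related *ATP13A3* had 0.43 and 0.92, and *GPC1*, a heparan sulfate carrier used in polyamine uptake, had 0.84 and 0.18.

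Of the 5 further antizyme and catabolic genes 3 passed. *OAZ3*, an antizyme known from the testis, was at 9.85 CPM (8.46 to 11.4), 17.1 CPM (16.0 to 18.3) and 9.79 CPM (8.58 to 11.1). *SATL1* had -0.61 (-1.09 to -0.11) in OLFM4-knockout, and *SAT2* had -0.29 (-0.57 to 0.00). Between OLFM4-knockout and the library labelled OLFM4-active none of the 28 was past 2-fold. Of all genes, 2.95% were more than 2-fold higher in OLFM4-knockout and 3.39% more than 2-fold lower. *MAT2A* came nearest of the 28 at -0.86 (-0.90 to -0.83), which was -1.10 on library totals.

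**Figure D4:**
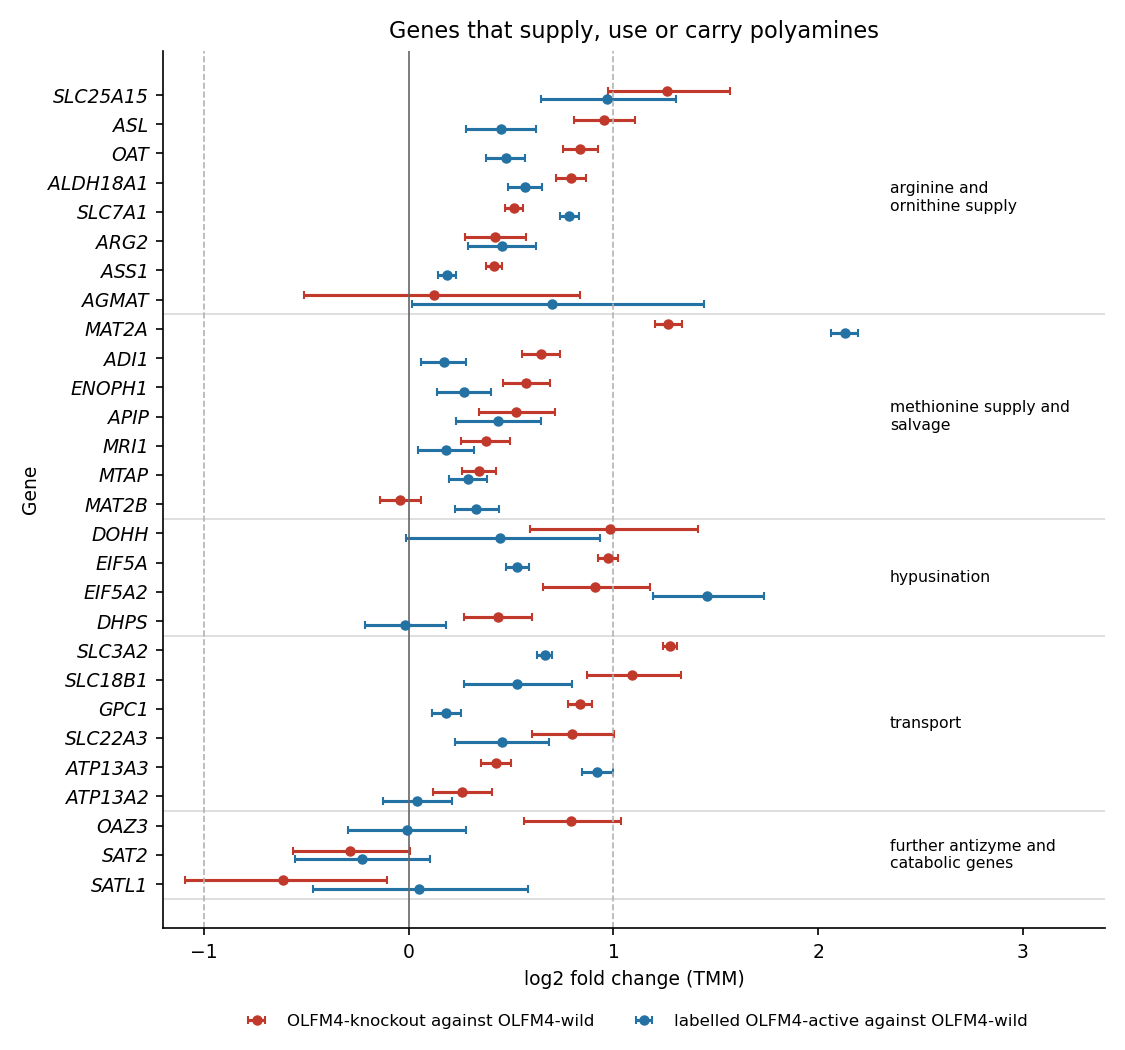
Log2 fold change (TMM) of the 28 wider pathway genes in OLFM4-knockout and in the library labelled OLFM4-active, each over OLFM4-wild, grouped by role, with 95% counting intervals and dashed lines at 2-fold. *MAT2A* (2.13) and *EIF5A2* (1.46) are higher in the library labelled OLFM4-active than in OLFM4-knockout (1.27 and 0.91).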

How the data were processed

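The authors deposited whole-number counts per gene for 3 libraries of total RNA depleted of ribosomal RNA. Per the paper's methods and the labels, cutadapt, HISAT2 and featureCounts were used on GENCODE GRCh38, counting only uniquely mapped, reversely stranded read pairs, so reads of near-identical copies are lost and strands are kept apart. The counts are not normalized.

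Libraries were scaled with TMM of edgeR 4.0.16 in R 4.3.3. Log2 CPM used an offset of 0.5 counts, as voom of limma 3.58.1 does. The 95% intervals are exact (Clopper-Pearson), taken on a gene's part of its library for CPM, and on the split of a gene's counts between 2 libraries for log2 fold changes. Counts and medians over genes used those averaging 1 CPM or more. At a count of 0 the Clopper-Pearson interval reaches 0.203, 0.0719 and 0.154 CPM in OLFM4-wild, OLFM4-knockout and the library labelled OLFM4-active. The scripts (Python 3.11.15, numpy 2.4.6, pandas 2.3.3, scipy 1.17.1, matplotlib 3.10.9) were tested on simulated data. Positions and exon lengths came from GENCODE version 44 of GRCh38, and the annotation version used for counting is not given in the sources used here. It held 98.1% of the table's identifiers.

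Named were all 10 members, wider pathway genes past 2-fold in any comparison or with the largest or smallest change of their role, the 5 genes nearest to *ODC1*, and *OLFM4*. *EIF5A*, *SLC7A1* and *MTAP* were named after their values were seen. Members and lists were chosen with earlier results of these data known. Alternatives were library totals, size factors of DESeq2 1.42.0, upper quartile factors, library sizes without the 10 most abundant genes, an offset of 5 counts, no filter or a minimum of 10 CPM, thinning to the smallest library, leaving out *ODC1*, and, for shares, exon length or 4 genes only. A luminal marker of the list is not reported here.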

Additional observations from a re-analysis of the deposited data

How the results depend on the processing

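No paired analysis was possible because each group had 1 library, and for the same reason no library could be left out. On library totals the *ODC1* log2 fold change was 2.95 (OLFM4-knockout against OLFM4-wild), 2.59 (labelled OLFM4-active over OLFM4-wild) and 0.37 (OLFM4-knockout over labelled OLFM4-active), and with upper quartile factors the first was 3.22 and the last 0.50. The last was 0.57 after thinning. Medians of the members on library totals were 0.13, 0.16 and -0.087 in that order, and the last was 0.046 with upper quartile factors. For the wider list the medians on library totals were 0.26 for OLFM4-knockout against OLFM4-wild and -0.010 for OLFM4-knockout over labelled OLFM4-active. The shifts on library totals and with upper quartile factors follow from the scaling, and the cause of that after thinning was not tested. The *ODC1* share of member counts was 19.7%, 62.6% and 56.3% per exon length, and 26.8%, 71.2% and 68.4% of 4 genes (*ODC1*, *AZIN1*, *OAZ1*, *OAZ2*), in OLFM4-wild, OLFM4-knockout and labelled OLFM4-active.

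Wider pathway genes above a log2 fold change of 1 in OLFM4-knockout against OLFM4-wild numbered 4, beside 5.77% of all genes. On library totals they numbered 0, beside 2.18%. With TMM over OLFM4-wild and OLFM4-knockout alone they numbered 7, and the share of all genes was not computed there. That setting was chosen after seeing the data because the library labelled OLFM4-active goes against its label. Wider pathway genes below -1 numbered 0 in each comparison, but 1 (*MAT2A*) on library totals in OLFM4-knockout against labelled OLFM4-active, beside 6.97% of all genes. Without the filter on low levels they numbered 3 in OLFM4-knockout over OLFM4-wild, 2 in labelled OLFM4-active over OLFM4-wild and 2 in the last comparison. That setting admits genes of few counts, and the share of all genes below -1 was not computed for it, so nothing is read from these numbers. The counts of members past 2-fold were the same under every alternative run. Depth limits *PAOX* and *SMOX* most, and intervals cover counting error only, so the spread between cultures is unknown.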
